A study of Mus musculus with 5 samples.

Results

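The genes described here are the fibroblast growth factors (FGFs), their receptors and the inhibitors that act back on them, measured in embryonic mouse hearts (E10.5). All probe sets were taken whose annotated symbol is Fgf followed by digits, Fgfr1 to Fgfr4, Fgfrl1, Spry1 to Spry4 or Spred1 to Spred3. That gave 33 probe sets for 33 genes, of 23279 genes in all. Spry3 was not analysed here. Genes with a mean level over the 5 arrays under the 40th percentile of all genes (4.44 on the log2 scale) were called dim, and those were described without a test. This applied to 11 of the 33 members, or 33.3%, which left 22 members tested among 13967 genes.

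FGFs are secreted ligands that bind receptor tyrosine kinases together with heparan sulphate on the cell surface, and the activated receptor passes the signal through adaptor proteins and Ras to the kinase ERK. Sprouty and Spred proteins restrain this relay, and several of their genes are themselves switched on by it, so that they form a negative feedback. In the developing heart, Fgf8 and Fgf10 are known from the progenitors of the second heart field, while Fgf9, Fgf16 and Fgf20 act from the epicardium and endocardium through Fgfr1 and Fgfr2 on the growth of the myocardium. A separate branch of the family, Fgf11 to Fgf14, stays inside the cell, where its members bind voltage-gated sodium channels.

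There were 3 arrays of hearts with the genotype label Control and 2 of hearts labelled KO, all untreated and of the same stage. The labels do not name the deleted gene, the allele, the strain or the way the deletion was made, nor whether the controls were wild type or heterozygous, or whether a sample was 1 heart or a pool. The p-values therefore measure the spread between these 5 samples, which may be partly technical. The title of the series names LRRFIP2 and the response to hypoxia in heart formation. Lrrfip2 had levels of 7.33, 8.07 and 8.08 in Control replicates 1, 2 and 3 and 6.36 and 6.22 in KO replicates 1 and 2, a log2 difference of -1.54 ± 0.28 (SE) with an adjusted p of 0.355 in limma. No label or header says whether its probe set lies in the deleted part.

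All 14 cardiomyocyte markers were measured above the dim level, with a list mean of 11.61 to 11.64 on the Control arrays, 11.70 on KO replicate 1 and 11.47 on KO replicate 2. On KO replicate 2, 11 of the 14 lay below every Control array, where 28.2% of all genes tested did, and on KO replicate 1, 7 lay above and 5 below. The KO arrays differed from each other in markers of other tissues too. In KO replicate 2, all 12 tested liver and gut endoderm markers lay above every Control array, where 21.6% of all genes tested did. The list mean was 7.84 against 4.67 to 4.79 on the other 4 arrays, and Afp was at 11.42 against 3.86 to 4.07. Afp, Apob and Fgb lay under the dim level on those 4 arrays and passed the filter through KO replicate 2 alone. They had to be high there to be tested, so the count and the list mean are partly fixed by the filter. The 3 dim markers of the list lay above every Control array there too. In KO replicate 1, 4 of 6 tested markers of macrophages and other white blood cells and 7 of 10 of endothelium lay above every Control array. Of all genes tested, 26.6% did. Both KO arrays lay above for 2 of these white blood and 4 of the endothelial markers, where 8.18% of all genes did. Both lay below for 1 of each list, where 13.1% of all genes did. The white blood list mean was 6.04 on KO replicate 1 against 5.28 to 5.42 on the others. All 8 tested erythroid markers had lower means in KO, where 44.8% of all genes tested had a higher mean. Both KO arrays lay below all controls for 1 of the 8, where 13.1% of all genes did. The erythroid list mean was 9.28 on Control replicate 3 against 8.04 to 8.55 on the other arrays. On KO replicates 1 and 2 it was 8.07 and 8.29, inside the Control range. In whole tissue, fewer cells of a type and less RNA per cell cannot be told apart. With 5 arrays, every value below has limited precision.

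No member of the FGF group passed the adjusted threshold of 0.05, and Fgf11, which encodes one of the intracellular factors, stood apart from the rest by its size. In limma 0 of 22 tested members were called, as were 0.0% of all genes. With an unadjusted p under 0.05 there were 3 members with a higher level in KO, Fgf11, Spred2 and Spry4, against 3.29% of all genes tested, and 0 with a lower level, against 5.49% (8.78% in either direction). Both KO arrays lay above all 3 Control arrays for 4 members, those 3 and Fgf22, where 8.18% of all genes did so. Both lay below for 0 members, where 13.1% of all genes did so (21.3% in either direction). The mean was higher in KO for 12 members, where 44.8% of all genes had a higher mean, and lower for 10. The median log2 difference (KO minus Control) was 0.05 over the tested members and -0.02 over all genes tested. Without Fgf11 the median over the members was 0.0078. Fgf11 passed the dim filter through the KO arrays alone and had to differ to be tested. Its place in the counts of this paragraph is therefore not support for a difference. Without any one of the Control arrays only Fgf11 of the 3 kept an unadjusted p under 0.05, where 2.27% to 2.78% of all genes were higher at that level. Without KO replicate 1 there were 4 members higher and 4 lower at that level, where 7.28% of all genes were higher and 9.72% lower. Without KO replicate 2 there were 6 members higher and 2 lower, where 12.7% and 14.7% of all genes were. In those fits the lone KO array is assumed to vary like the controls.

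**Figure D1:**
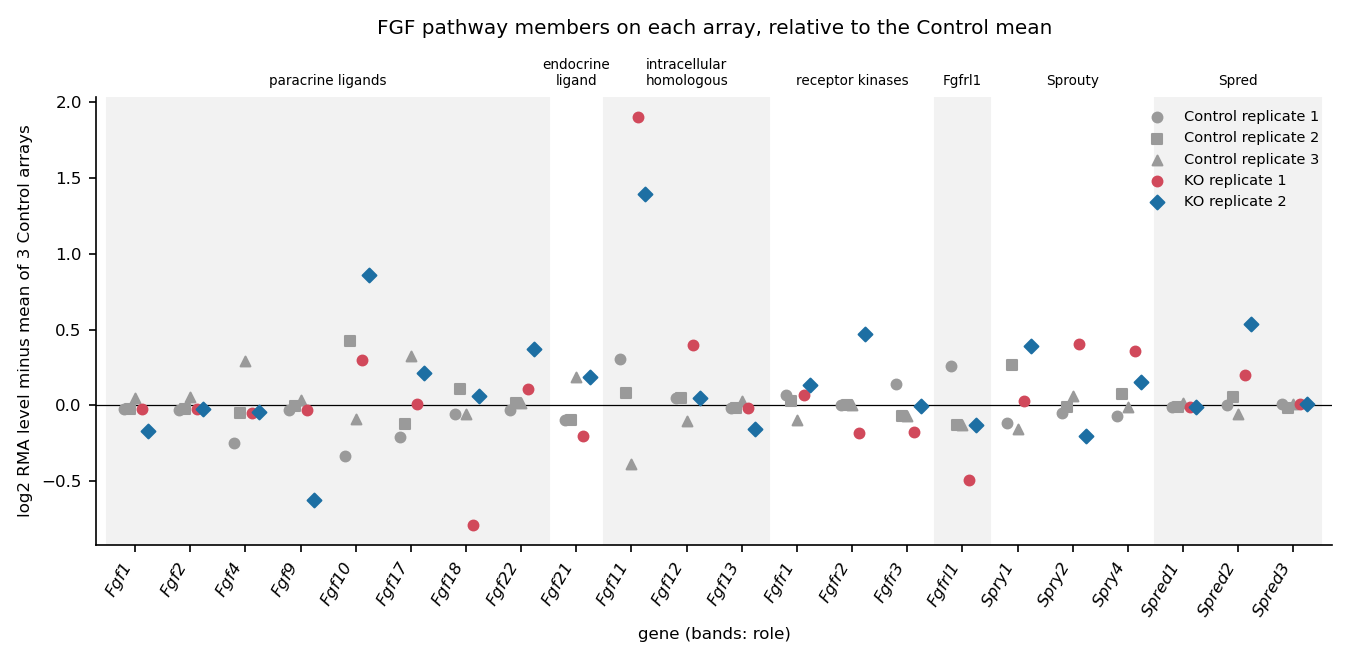
Level of each of the 22 tested members on every array minus the mean of the 3 Control arrays (log2 scale, y axis), with genes on the x axis grouped by role in alternating bands. Grey symbols are the Control arrays, red circles KO replicate 1 and blue diamonds KO replicate 2; for Fgf11 both KO symbols lie above 1, whereas for most other members at least one KO symbol is among the grey ones.

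Among the intracellular factors, Fgf11 (Entrez 14166, chromosome 11) was higher on both KO arrays. Its level was 4.38, 4.16 and 3.69 on Control replicates 1, 2 and 3 and 5.97 and 5.47 on KO replicates 1 and 2. The groups did not overlap, and the gap between the lower KO array and the highest Control array was 1.09. The log2 difference was 1.65 ± 0.28 (SE), a 3.13-fold higher level with a 95% confidence interval of 1.83 to 5.36. In limma its unadjusted p was 0.00403 and its adjusted p over all genes 0.355. It ranked at place 37 of 13967 genes for a higher level in KO and at place 153 for the size of p. All 3 Control values lay under the dim level, so Fgf11 passed the filter through the KO arrays alone and had to differ to be tested. Signals of single probes and their background were not analysed here, so the fold against such a low level is uncertain. The difference stayed between 1.40 and 1.90 in the 15 alternatives that tested it, with an unadjusted p of 5.61e-04 to 0.0372 and an adjusted p of 0.0954 to 0.757. It was 1.40 without KO replicate 1 and 1.90 without KO replicate 2. Because the KO arrays carried it past the filter, the values from fits with that filter do not support the difference. In the fit with no filter its unadjusted p was 0.00527 and its adjusted p 0.511 in limma, so it was not called there either.

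The other intracellular factors did not pass the unadjusted threshold either way. Fgf12 was at 4.63, 4.63 and 4.48 on the Control arrays and at 4.98 and 4.63 in KO, so that only KO replicate 1 lay above the controls. Its log2 difference was 0.22 with a 95% interval of -0.13 to 0.58 (limma). Fgf13, an X-linked member, was at 6.19, 6.19 and 6.23 in Control and at 6.19 and 6.05 in KO, a difference of -0.08 with an interval of -0.24 to 0.07. Fgf14 was dim, with 4.35, 4.0 and 4.35 in Control and 4.76 and 4.04 in KO. Of the 10 sodium channel genes listed as partners of this branch, 7 were on the array and 6 of those were dim. The remaining one, Scn2b, differed by -0.05 (95% interval -0.16 to 0.06).

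The measured genes on either side of the members with both KO arrays above the controls were set beside them. Chrnb1, a subunit of the muscle acetylcholine receptor and the measured gene next to Fgf11 on one side, was dim at 4.27, 4.27 and 4.14 in Control and 4.50 and 4.27 in KO. Tmem102, on the other side, was dim as well, with 3.90, 4.06 and 3.90 in Control and 3.90 on both KO arrays. Neither had both KO arrays above the controls. For Spred2 the neighbours Meis1 and Rab1a differed by 0.09 and -0.02. For Spry4 the neighbours Ndfip1 and Arhgap26 differed by 0.01 and -0.0026. For Fgf22, Polrmt differed by -0.33 and Rnf126 by 0.28, and Rnf126 was at 8.75 on KO replicate 2 against 8.13 to 8.36 on the other arrays.

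The promoters of 3 of the 4 members with both KO arrays above the controls are shown because the series' title names hypoxia, and hypoxia-inducible factors bind a short core motif. They are the 250 bases before the annotated start, on the gene's own strand, from RefSeq in build GRCm38.p6, for Fgf11 (chr11:69802281-69802530, minus strand), Spred2 (chr11:19924192-19924441, plus strand) and Fgf22 (chr10:79754859-79755108, plus strand). Capitals mark the motif, searched as ACGTG or GCGTG on either strand (CACGT or CACGC when it lies on the opposite strand).
Fgf11: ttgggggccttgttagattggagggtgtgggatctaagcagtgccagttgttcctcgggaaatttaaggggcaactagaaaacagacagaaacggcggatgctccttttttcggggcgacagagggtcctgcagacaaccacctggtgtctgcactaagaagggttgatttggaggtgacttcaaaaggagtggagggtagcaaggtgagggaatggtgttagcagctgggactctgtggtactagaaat
Spred2: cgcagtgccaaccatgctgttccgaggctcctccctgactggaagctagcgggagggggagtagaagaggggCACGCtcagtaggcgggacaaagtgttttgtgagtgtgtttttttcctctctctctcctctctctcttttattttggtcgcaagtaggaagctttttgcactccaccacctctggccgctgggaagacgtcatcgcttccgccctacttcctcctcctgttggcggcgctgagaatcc
Fgf22: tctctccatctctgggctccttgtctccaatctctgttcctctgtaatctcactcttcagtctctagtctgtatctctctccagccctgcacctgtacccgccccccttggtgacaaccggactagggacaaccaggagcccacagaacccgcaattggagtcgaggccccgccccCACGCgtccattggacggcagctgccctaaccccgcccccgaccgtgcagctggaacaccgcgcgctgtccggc
In the Fgf11 window these letters did not occur. Spred2 held 1 match, starting 178 bases before the start, and Fgf22 held 1, starting 74 bases before it, both on the opposite strand. Of 32851 promoter windows of this length in the table, 38.6% held at least 1 match. Of the 32 windows of 25 members in the table, 17 did. A match is a stretch of letters and not a measured binding site, and its absence from 1 window says nothing about the factor.

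The secreted ligands had no member with an unadjusted p under 0.05. Of 8 tested paracrine ligands, which act on nearby cells, 3 had a higher and 5 a lower mean in KO, with a median log2 difference of -0.04. Fgf10, a ligand of the second heart field, was at 4.29, 5.05 and 4.53 on Control replicates 1, 2 and 3 and at 4.92 and 5.49 on KO replicates 1 and 2. Its log2 difference was 0.58 with a 95% interval of -0.27 to 1.43, and KO replicate 1 lay inside the control range. On that array the second heart field list had a mean of 6.02, and it was 6.42 on KO replicate 2, against 5.99 to 6.53 in Control. Fgf22 was at 4.76, 4.80 and 4.80 in Control and 4.90 and 5.16 in KO, so the groups did not overlap. The difference was 0.24 ± 0.09 (SE), with an unadjusted p of 0.0570 and an adjusted p of 0.570 in limma.

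Fgf9 and Fgf18 each differed on a single KO array. Fgf9, a growth signal for the myocardium made by epicardium and endocardium, was at 5.64, 5.67 and 5.70 in Control, at 5.64 on KO replicate 1 and at 5.05 on KO replicate 2. On KO replicate 2, 7 of 10 epicardial markers lay above every Control array and 2 below, and of 10 endothelial and endocardial markers 4 lay above and 2, Tek and Nfatc1, below. Of all genes tested, 21.6% lay above and 28.2% below on that array. The part of these cells in the Fgf9 values was not tested. Fgf18 was the other way round, with 5.80, 5.97 and 5.80 in Control, 5.07 on KO replicate 1 and 5.92 on KO replicate 2. The log2 differences were -0.32 for Fgf9 (95% interval -0.86 to 0.21) and -0.36 for Fgf18 (-1.14 to 0.41). Without KO replicate 1 the difference was -0.62 for Fgf9 and 0.062 for Fgf18, and without KO replicate 2 it was -0.026 for Fgf9 and -0.79 for Fgf18. With the endoderm level, high on KO replicate 2 alone, as a covariate it was -0.040 for Fgf9 and -0.77 for Fgf18. The adjusted p in these fits was 0.0614 or more in limma. The part of the white blood and endothelial markers that were higher on KO replicate 1 was not tested.

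The remaining tested ligands lay close to the controls. Fgf2, a heparin-binding ligand of many tissues, was at 6.35, 6.36 and 6.44 in Control and 6.36 on both KO arrays, with an interval of the log2 difference of -0.14 to 0.10. Fgf1, another heparin-binding ligand, was at 5.56, 5.56 and 5.64 in Control and 5.56 and 5.42 in KO (interval -0.27 to 0.07). For both genes the whole interval lies within 0.5 of 0 on the log2 scale, although each shows only 3 different values over 5 arrays. Fgf17, of the same subfamily as Fgf8, was at 5.05, 5.14 and 5.59 in Control and 5.27 and 5.48 in KO, and Fgf4 at 4.32, 4.51 and 4.85 against 4.51 and 4.52. Both KO arrays were inside the control range for these 2 genes. Fgf21, an endocrine ligand known from liver, was at 4.46, 4.46 and 4.74 in Control, 4.35 on KO replicate 1 and 4.75 on KO replicate 2, so the KO arrays fell on opposite sides of the controls.

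The dim members were Fgf3, Fgf5, Fgf6, Fgf7, Fgf8, Fgf15, Fgf16, Fgf20 and Fgf23 among ligands, with Fgf14 and Fgfr4. Their means ran from 3.29 to 4.30, and the KO minus Control difference of means from -0.04 to 0.33. Fgf8, which is needed for outflow tract formation, was at 3.98, 4.10 and 4.27 in Control and 4.18 and 4.03 in KO, inside the control range. Fgf16 and Fgf20, relatives of Fgf9, stayed at 3.46 to 3.75 and 3.53 to 3.64 over all arrays. Fgf7 was deposited with 1 and the same value, 4.02, on all 5 arrays. In 3 dim members a single array reached above the dim level: Fgf23 and Fgf14 on KO replicate 1 and Fgfr4 on KO replicate 2. The members nearest to the limit were Fgf14 (mean 4.30) and Fgf15 (4.19) below it and Fgf4 (4.54) and Fgf21 (4.55) above it. In a fit with no filter, 0 of all 33 members passed the adjusted threshold.

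Of the receptors, Fgfr1 differed little between the groups and the 2 KO arrays disagreed on Fgfr2. Fgfr1 (Entrez 14182), the main FGF receptor of mesoderm, was at 6.78, 6.75 and 6.62 in Control and 6.78 and 6.85 in KO. The log2 difference was 0.10 with a 95% interval of -0.08 to 0.29. Fgfr2 (Entrez 14183), which is abundant in epithelia and also found in the myocardium, had the value 6.17 on all 3 Control arrays, 5.99 on KO replicate 1 and 6.64 on KO replicate 2. KO replicate 1 was thus below and KO replicate 2 above every control. The log2 difference was 0.15 with an interval of -0.44 to 0.73. Leaving out KO replicate 2 gave -0.18 (adjusted p = 0.0380 in limma). This was the one member call in any alternative, and it rested on a single KO array against 3 equal control values. In that fit 983 of 13967 genes, or 7.04%, passed the adjusted threshold. Leaving out KO replicate 1 gave 0.47 (adjusted p = 0.0532 in limma). A fit with the endoderm level as a covariate gave -0.17 (adjusted p = 0.0535 in limma); the endoderm level is high on KO replicate 2 alone, so this fit nearly repeats leaving that array out. Fgfr4, a receptor typical of liver and gut endoderm, was dim at 3.84, 4.02 and 4.02 in Control and 4.02 on KO replicate 1, and was at 4.47 on KO replicate 2. That is the array with the endoderm transcripts, and their part in the values of both receptors was not tested beyond these fits.

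Fgfr3 and Fgfrl1 had lower means in KO, without a call. Fgfr3, known from cartilage and brain, was at 5.31, 5.10 and 5.10 in Control and 5.0 and 5.17 in KO (difference -0.09, 95% interval -0.37 to 0.19). Fgfrl1, a receptor without a kinase domain that can bind ligand and does not relay a signal in the usual way, was at 6.74, 6.35 and 6.35 in Control and 5.99 and 6.35 in KO. Its log2 difference was -0.31 with an interval of -0.83 to 0.21, and KO replicate 2 overlapped the controls.

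Among the feedback inhibitors, Spred2 and Spry4 had higher levels on both KO arrays, without a call after adjustment. All 3 tested Sprouty genes and 2 of 3 Spred genes had a higher mean in KO, where 44.8% of all genes did. For Spry2 the KO arrays lay on opposite sides of the controls. The Spred3 difference of 0.0078 rests on 1 lower Control value. With the erythroid level as a covariate the unadjusted p was 0.101 for Spred2 and 0.118 for Spry4 in limma. Spred2 (Entrez 114716), which blocks the activation of Raf, was at 8.16, 8.21 and 8.10 in Control and 8.36 and 8.69 in KO. The log2 difference was 0.37 ± 0.12 (SE), a 1.29-fold higher level, with an unadjusted p of 0.0332 and an adjusted p of 0.525 in limma. It was 0.54 without KO replicate 1 and 0.20 without KO replicate 2, so the larger part of it lay on KO replicate 2. Spry4 (Entrez 24066) was at 6.21, 6.35 and 6.27 in Control and 6.63 and 6.43 in KO, with the higher value on KO replicate 1. The log2 difference was 0.26 ± 0.08 (SE), 1.20-fold, with an unadjusted p of 0.0376 and an adjusted p of 0.541 in limma. Without KO replicate 1 it was 0.16 (unadjusted p 0.133), and without KO replicate 2 it was 0.36.

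For Spry2 the 2 KO arrays lay on opposite sides of the controls. It was at 7.62, 7.66 and 7.73 on the Control arrays, at 8.08 on KO replicate 1 and at 7.47 on KO replicate 2, which gave a log2 difference of 0.10 with a 95% interval of -0.45 to 0.66. Without KO replicate 1 the difference was -0.20 and without KO replicate 2 it was 0.41. Spry1 was at 5.10, 5.48 and 5.06 in Control and 5.24 and 5.61 in KO, an overlap (0.21, interval -0.32 to 0.74). Spred1 had 8.31, 8.31 and 8.33 in Control and 8.31 on both KO arrays, and Spred3 had 4.89, 4.87 and 4.89 against 4.89 on both. Their intervals, -0.10 to 0.08 and -0.08 to 0.09, are among the narrowest of the members, although they rest on repeated values, since each gene shows only 2 different values over 5 arrays.

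**Figure D2:**
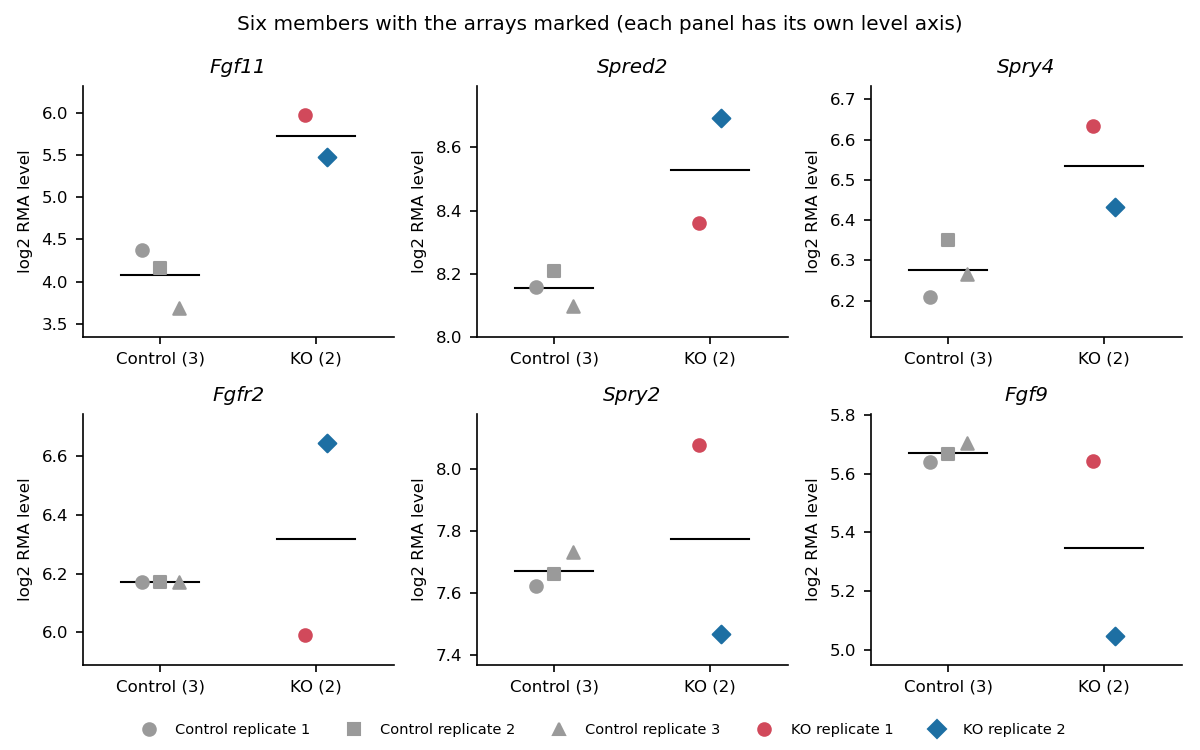
Log2 RMA level (y axis, a separate range for each gene) on the 3 Control and 2 KO arrays for Fgf11, Spred2, Spry4, Fgfr2, Spry2 and Fgf9; horizontal bars are group means and symbols identify the arrays. In the upper row both KO arrays lie above all controls, while Fgfr2 and Spry2 have 1 KO array on each side and Fgf9 is low on KO replicate 2 alone.

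The KO arrays lay on opposite sides of all controls for 3 of the 22 tested members, Fgf21, Fgfr2 and Spry2, as they did for 11.5% of all genes. KO replicate 1 was above every control for 6 members and below for 5, where 26.6% and 33.9% of all genes were. KO replicate 2 was above for 9 and below for 4, where 21.6% and 28.2% of all genes were. The deposited values repeat across arrays: 14 of the 22 tested members carried a tie between arrays, against 54.8% of all genes tested, and the source of these ties was not tested.

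The precision differed between members. The 95% interval of the log2 difference lay within 0.5 on either side of 0 for 10 of the 22 tested members and within 1 for 19. All of those 10 except Spry4 carried a tie between arrays, as did 54.8% of all genes tested. Their narrow intervals therefore rest partly on repeated values. The median half-width of the interval was 0.41 over the members and 0.27 over all genes tested. The intervals of Fgf10, Fgf18 and Fgf11 reached beyond 1. Among the 19 were the tested receptors, Fgf1, Fgf2 and the 6 tested Sprouty and Spred genes.

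**Figure D3:**
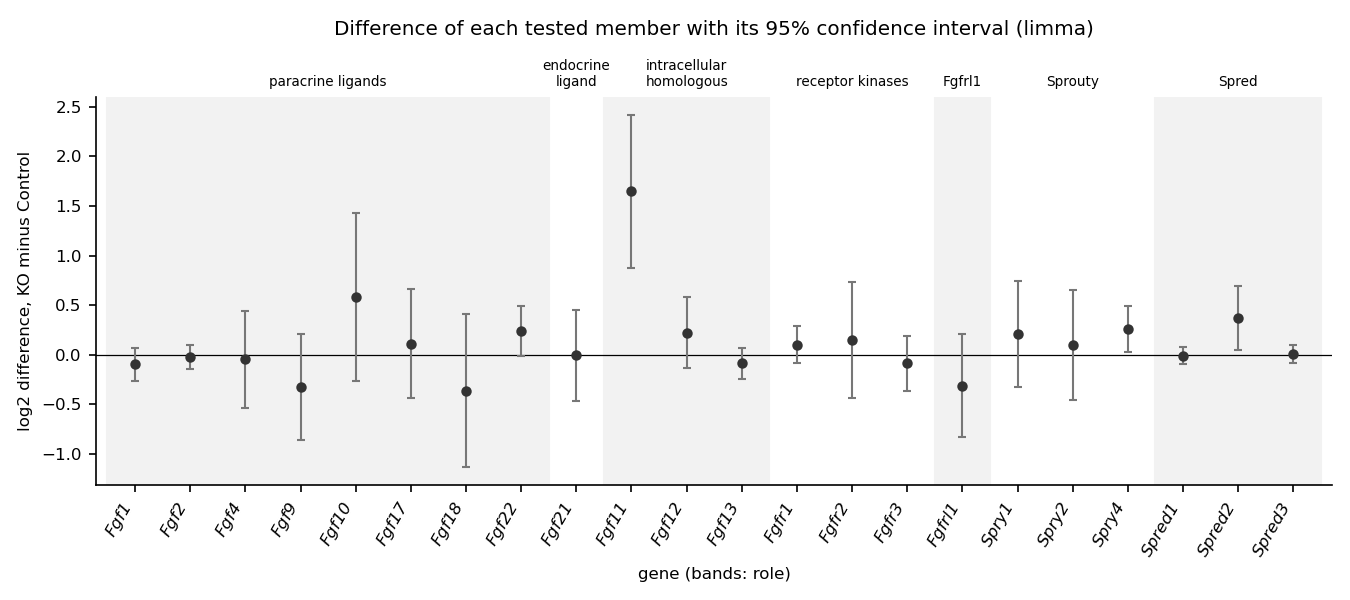
Log2 difference between KO and Control (y axis, points) with the 95% confidence interval from limma (bars) for the 22 tested members, grouped by role along the x axis. The intervals of Fgf11, Spred2 and Spry4 lie above 0 and all others include 0; none was called after adjustment over all genes.

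The relay inside the cell was represented by 18 tested genes of a list of 25, and 7 of the list were not analysed here. In limma 0 passed the adjusted threshold, 1 was higher and 1 lower at an unadjusted p under 0.05 (3.29% and 5.49% of all genes), and the median log2 difference was -0.03 against -0.02 over all genes. Both KO arrays lay above all controls for 2 and below for 4, where 8.18% and 13.1% of all genes did. Gab1, an adaptor that couples receptors to the phosphatase Shp2, was at 8.59, 8.60 and 8.51 in Control and 8.25 and 8.34 in KO, with both KO arrays below all controls (difference -0.27 ± 0.05, SE). Its unadjusted p was 0.00620 and its adjusted p 0.364 in limma. Ptpn11, which encodes Shp2, was at 8.14, 8.14 and 8.36 in Control and 7.97 and 8.0 in KO, also without overlap (-0.23, 95% interval -0.47 to 0.01). Rps6ka3, a kinase downstream of ERK, differed by 0.18 with an unadjusted p of 0.0472 in limma. Without KO replicate 2, 8 of the 18 had an unadjusted p under 0.05, where 27.3% of all genes did, and without Control replicate 2 there was 1, where 5.66% did.

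Genes that ERK signalling induces, with further feedback genes, had 12 higher and 6 lower means among 18 tested of 20 listed, and a median of 0.03. In limma 0 passed the adjusted threshold, 3 were higher and 0 lower at an unadjusted p under 0.05 (3.29% and 5.49% of all genes). Both KO arrays lay above all controls for 6 and below for 0, where 8.18% and 13.1% of all genes did. Ier3, an early response gene with many inducers, was at 6.51, 6.65 and 6.37 in Control and 9.51 and 8.50 in KO, a log2 difference of 2.49 ± 0.34 (SE) with an adjusted p of 0.348 in limma. Without KO replicate 2 the difference was 3.0 with an adjusted p of 0.0293, in a fit where 7.04% of all genes passed that threshold. Egr1, an early transcription factor of the ERK pathway, was at 5.95, 5.86 and 5.80 in Control and 6.46 and 6.16 in KO (0.44 ± 0.11, SE). Myc was at 7.30, 7.25 and 7.75 in Control and 7.93 and 8.06 in KO (0.56 ± 0.18, SE). These 3 genes answer to many signals besides FGF. Without Control replicate 2 1 of the 18 was under an unadjusted p of 0.05, where 5.66% of all genes were, and without KO replicate 2 there were 6, where 27.3% were.

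Dusp6, Etv1, Etv4, Etv5 and Il17rd, often read as a gauge of FGF signalling, were named here after their values were seen. They differed among themselves, and none of them had an unadjusted p under 0.05 in limma. The choice matters, since the feedback gene Spry4 was under that level (0.0376 in limma). Dusp4, of the ERK response list, had both KO arrays above all controls (0.14, 95% interval -0.0044 to 0.29). Dusp6, a phosphatase that inactivates ERK, was at 8.65, 8.56 and 8.20 in Control and 8.67 and 9.0 in KO, a log2 difference of 0.37 with a 95% interval of -0.15 to 0.88. The ETS factor Etv1 was at 7.31, 7.14 and 6.71 in Control and 7.48 and 7.43 in KO (0.40, -0.16 to 0.96). Both of these had no overlap between groups, though the gap between KO replicate 1 and Control replicate 1 was small for Dusp6. The related factors Etv4 and Etv5 overlapped the controls. Etv4 was at 5.51, 5.40 and 5.57 in Control and 5.51 on both KO arrays, with an interval of -0.16 to 0.19. Etv5 was at 7.94, 8.08 and 7.91 in Control and 7.91 and 8.11 in KO, with an interval of -0.23 to 0.29. The receptor antagonist Il17rd was at 5.79 or 5.80 on every array.

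Of the co-receptors and the matrix proteins and enzymes that shape FGF binding, 23 were tested of 27 listed. The mean was higher in KO for 7, where 44.8% of all genes had a higher mean, and lower for 16, with a median of -0.07 against -0.02 over all genes. In limma 0 passed the adjusted threshold, and 2 were higher and 1 lower at an unadjusted p under 0.05 (3.29% and 5.49% of all genes). Both KO arrays lay above all controls for 2 and below for 4, where 8.18% and 13.1% of all genes did. Sdc4, a heparan sulphate proteoglycan of the cell surface, was at 6.86, 6.82 and 7.08 in Control and 7.63 and 7.55 in KO. The log2 difference was 0.67 ± 0.10 (SE), 1.59-fold, with an unadjusted p of 0.00231 and an adjusted p of 0.354 in limma. Fgfbp3, which carries FGFs in the matrix, was at 5.73, 5.69 and 5.69 in Control and 5.88 and 5.87 in KO (0.17 ± 0.03, SE). Extl3, an enzyme that starts heparan sulphate chains, was at 7.42, 7.16 and 7.14 in Control and 6.41 and 6.88 in KO (-0.60 ± 0.18, SE), with the lower value on KO replicate 1. Gpc6, a glypican chosen for mention after its values were seen, was at 7.51 on KO replicate 2 and at 5.90 to 6.35 on the other 4 arrays. Without KO replicate 1, 6 of the 23 had an unadjusted p under 0.05, where 17% of all genes did, and without KO replicate 2 there were 8, where 27.3% did.

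**Figure D4:**
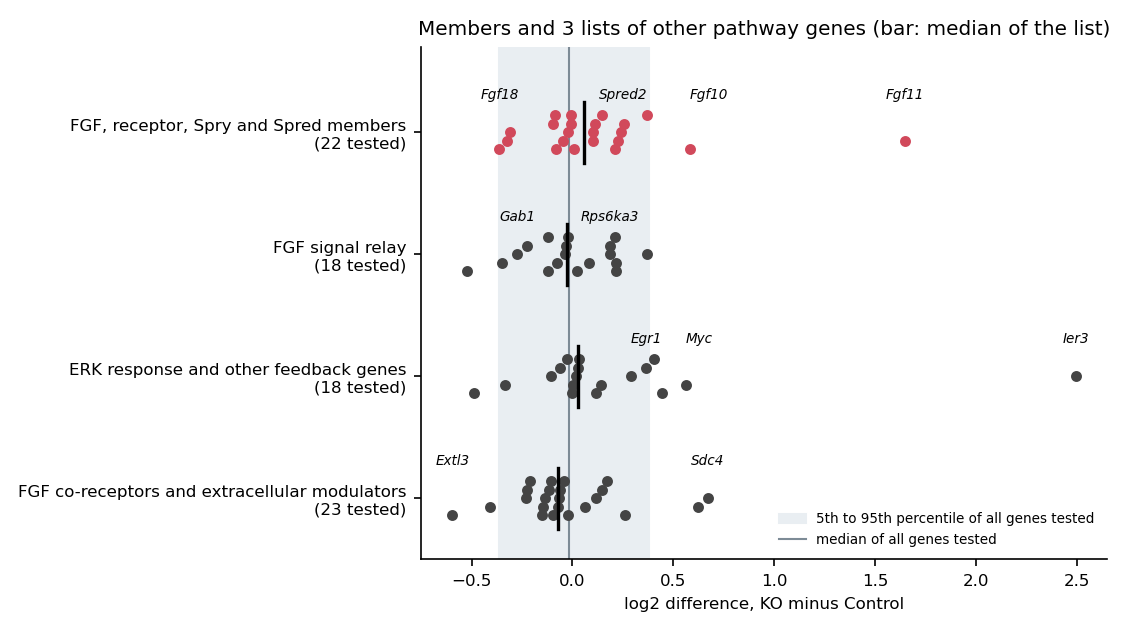
Log2 difference between KO and Control (x axis) for the 22 tested members (red, top) and for 3 lists of other pathway genes (dark points); vertical bars are list medians, the grey line is the median of all genes tested and the shaded band runs from their 5th to 95th percentile (-0.37 to 0.38). Fgf11 and Ier3 lie far to the right of the band, and the list medians lie close to the median of all genes.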

How the data were processed

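The authors deposited 1 table of log2 levels. The submitters' processing notes name Affymetrix Expression Console and RMA (background correction, a common distribution for all arrays, summary of a set's probes), from 20 ng of total RNA per the labels' protocols. No source used here states versions or settings. Array medians lay between 5.07 and 5.11. Of 24479 probe sets, 23281 carry 1 gene symbol, 0 several and 1198 none; current names came from a RefSeq gene table (GRCm38.p6) for 23156. As no source states the build of the array's annotation, that table gave names and gene order only. The brightest set of a gene was kept.

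KO was compared with Control in limma 3.58.1 under R 4.3.3 (a two-sided test from lmFit and eBayes without covariates), with Benjamini-Hochberg adjustment over 13967 genes and a threshold of 0.05, and the steps were tested on simulated data. With 10 possible splits of the arrays no permutation p can fall below 0.1. The members and lists were chosen with earlier results of these data known. All members are named, and of pathway lists, genes with an unadjusted p under 0.05, otherwise up to 3 with the smallest p. The cell type markers named, Afp, Apob, Fgb, Tek and Nfatc1, were not the brightest of their lists. They and other genes were picked with their values in view. The alternatives varied the dim filter, the variance prior, array weights, normalization, probe sets, tied values, endoderm or erythroid level as a covariate, and the arrays used (each left out in turn).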

Additional observations from a re-analysis of the deposited data

How the results depend on the processing

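No paired analysis was possible because the labels give no replicate numbers shared between Control and KO. Across 16 alternatives, the 22 tested members gave 325 values. Of these, 306 kept their direction and their side of the adjusted threshold, 2 were 0 (Spred1 and Spred3) and 17 changed sign, in 8 members. The other 14, among them Fgf11, Spred2, Spry4, Fgf22 and Fgf10, kept their sign throughout. Much of this was fixed in advance. Changing the filter or the variance prior, or leaving out tied genes, could not alter a member's difference. Averaging probe sets could not either, as each member has a single set. For Fgf11, Spred2, Spry4 and Fgf22 both KO arrays lay above all controls, so leaving out an array could not reverse the sign. The precision is limited by 5 arrays, and signal over background could not be judged for single probes.

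When Control arrays were left out in turn, 0 members passed the adjusted threshold in limma. At an unadjusted p under 0.05, 1 member was higher and 0 lower, where 2.27% to 2.78% and 3.19% to 4.87% of all genes were. Groups did not overlap for 5 to 6 members higher and 0 to 1 lower, and the share of all genes was not calculated. With 1 KO array left, no overlap means only that this array lay outside the controls. KO replicate 2 lay above for 9 members and below for 4 (21.6% and 28.2% of all genes). KO replicate 1 lay above for 6 and below for 5 (26.6% and 33.9%). Over all fits with 1 array left out, the median difference ran from -0.0011 to 0.093. With a Control array left out, the lowest number of genes with an unadjusted p under 0.05 in limma was 1 in the signal relay list. It was 1 in the ERK response list and 2 in the list of co-receptors and modulators. In those fits 5.53% to 7.65% of all genes were under that p. Counts from fits with 1 KO array left rest on that array and are not set beside these. With the endoderm level as a covariate, 6 members were higher and 2 lower at an unadjusted p under 0.05, the median was -0.00061, and the 3 lists had 8, 5 and 8 such genes, where 27.3% of all genes were under that p in either direction. With the erythroid level as a covariate 1 member was higher (2.38% of all genes) and the median was 0.089. The median was 0.083 with the filter at the 25th percentile, 0.10 with it at the 60th (where 2 members were higher without overlap) and 0.23 without tied genes. Centring each array gave 1 member lower without overlap. For this count and the one at the 60th percentile the share of all genes was not calculated, so neither is a result about the members. The relay list had 1 gene under that p with the 60th percentile, the trended robust prior, array weights, the erythroid covariate or no tied genes. In those fits, in that order, 10.9%, 8.46%, 5.61%, 6.6% and 14.9% of all genes had an unadjusted p under 0.05 in limma. The cause of these shifts was not tested.

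Sign changes were as follows. With single arrays left out, the difference of Fgfr2 ran from -0.18 (without KO replicate 2) to 0.47, Spry2 from -0.20 (without KO replicate 1) to 0.41, Fgf18 from -0.79 to 0.062 (without KO replicate 1), Fgf21 from -0.20 to 0.19 (without KO replicate 1; 0.087 without Control replicate 3), Fgf4 from -0.17 to 0.10 (without Control replicate 3), and Fgf2 from -0.040 to 0.0035 (without Control replicate 3). For the pathway genes, Etv4 ran from -0.030 (without Control replicate 2) to 0.055, Etv5 from -0.068 (without KO replicate 2; -0.0039 without Control replicate 3) to 0.13, and Gpc6 from -0.065 (without KO replicate 2) to 1.31. With array weights Fgf21 was 0.055 and Fgf4 0.054. With the erythroid covariate Fgf2 was 0.0051, Fgf21 0.12, Fgf4 0.086, Spred1 0.00085 and Etv5 -0.016. With the endoderm covariate Fgfr2 was -0.17, Etv5 -0.063 and Gpc6 -0.034. After quantile normalization Spred1 was 0.0028 and Spred3 -0.0075, and after centring Spred3 was -0.0098 and Etv4 -0.00094. For the list counts and the other genes named, these alternatives were chosen after seeing the data; among those genes only Ier3 came to pass the adjusted threshold, without KO replicate 2 or with the endoderm covariate, fits in which 7.04% and 6.01% of all genes passed.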
